A study of Mus musculus with 10 samples.

Results

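Type 1 conventional dendritic cells (cDC1) were followed here through 9 of their marker genes, Batf3, Irf8, Xcr1, Clec9a, Flt3, Itgae, Tlr3, Wdfy4 and Naaa, in bulk RNA of 10 early melanomas. The genes were chosen by name as markers of the cell type, with earlier results of these data known, and are 9 of the 45706 genes in the count table. All 9 passed the filter on low counts, which 14550 genes passed. The study asked how cyclooxygenase in the cancer cells, and the NK cells of the host, shape the early tumor infiltrate. Its tumors grew from Braf V600E-driven mouse melanoma cells injected into C57BL/6 hosts 8 weeks old, and were taken on day 4. There were 4 tumors of cyclooxygenase-competent cells (Ptgs+/+), 3 tumors of cells lacking Ptgs1 and Ptgs2 (Ptgs-/-), and 3 Ptgs-/- tumors of hosts given anti-NK1.1 clone PK136 (200 µg) with anti-asialo GM1 (30 µg) on days 0 and 2 (NK-depleted Ptgs-/-). The dosing is that of the sample labels, and the study's methods describe another schedule and antibody dose for its depletion experiments in general. The deletion was in the injected line alone, so every host kept its own cyclooxygenases. Asialo GM1 is also carried by some leukocytes other than NK cells, and Ptgs+/+ tumors of depleted hosts were not analysed here. Nothing in the labels says that each tumor came from its own mouse, so the p-values measure the spread between these tumors.

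cDC1 take up material from dying cells and present it to CD8+ T cells, a route known as cross-presentation. Their development depends on the transcription factors IRF8 and BATF3 and on the growth factor receptor FLT3. XCR1, the receptor for the chemokine XCL1 made by NK and T cells, and CLEC9A, a receptor for the exposed actin of dead cells, are the markers closest to being restricted to cDC1. The other genes are shared more widely. Irf8 is also used by B cells, plasmacytoid dendritic cells and macrophages, Wdfy4 by B cells, Itgae by T cells, and Naaa and Tlr3 by several myeloid cells. Batf3 and Flt3 are also used by other leukocytes. In bulk tumor RNA, more cells of a type and more RNA per cell cannot be told apart. Such RNA also holds that of the cancer cells and stroma, whose part in these levels was not tested.

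The libraries held 8150556 to 12839174 counts of 3′-end reads, at which 3 counts in a library equal 0.234 to 0.368 CPM (counts per 1000000 of a library's total). This floor covers counting error only. Ptgs2 was lower in both Ptgs-/- groups (43.0 ± 27.6 and 44.8 ± 4.56 CPM, SD, n = 3 each) than in Ptgs+/+ tumors (253 ± 110 CPM, n = 4), and Ncr1, an NK cell receptor gene, had 0 counts in every NK-depleted tumor against 7 to 12 in Ptgs+/+ and 20 to 77 in Ptgs-/- tumors. The defining melanocyte genes Mlana, Tyr and Tyrp1 had at most 2 counts in any library. Of the other melanocytic genes listed, Mitf had 166 to 339 counts, Sox10 2 to 63, and Pmel and Dct at most 8. Skeletal muscle genes summed to 2242 to 5288 CPM in NK-depleted tumors, against 17.5 to 158 in Ptgs+/+ and 103 to 366 in Ptgs-/- tumors. NK-depleted tumor 1 held 145 counts over 7 B cell genes, against 16 to 41 in the other libraries. Ptgs+/+ tumor 4 and Ptgs-/- tumor 3 carry another code (EB042) in their labels than the rest (EB046), and what the code stands for is not stated.

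In tumors of hosts with NK cells, loss of cyclooxygenase in the cancer cells went with higher RNA of most cDC1 genes. Batf3 was 6.77-fold, Xcr1 4.47-fold, Naaa 3.88-fold and Clec9a 3.23-fold higher in Ptgs-/- than in Ptgs+/+ tumors, and Irf8, Itgae and Wdfy4 were 2.30- to 2.67-fold higher. In all, 7 of the 9 rose at an adjusted p of 0.05 or less (quasi-likelihood test of edgeR, adjusted by Benjamini-Hochberg over all genes), where 23.1% of all genes tested differed and 12.1% rose. None fell. Flt3 and Tlr3 did not pass. With a log2 fold change of at least 1.5 required as well, 4 genes remained, Batf3, Xcr1, Naaa and Clec9a, against 3.14% of all genes. The median log2 fold change over the 9 was 1.42, and over all genes -0.006. In 7 of the 9, every Ptgs-/- tumor lay above every Ptgs+/+ tumor, as did 18.1% of all genes. Those 7 include Tlr3 and not Itgae.

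**Figure D1:**
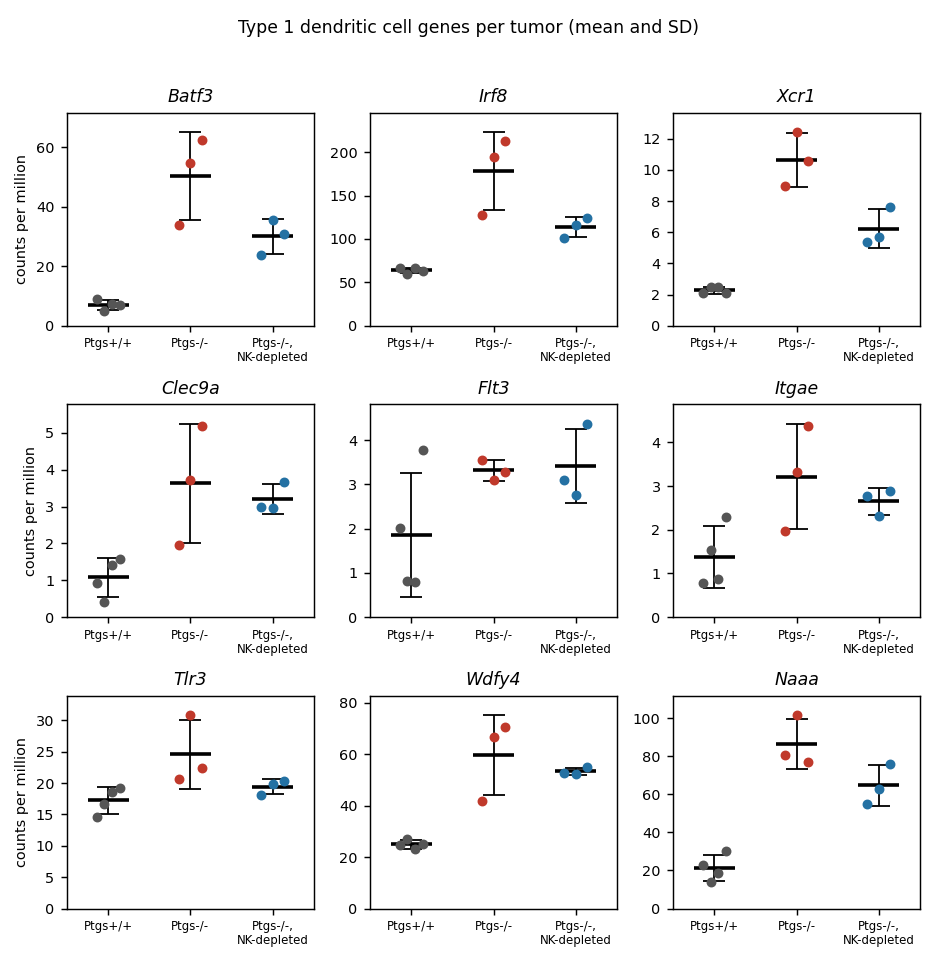
Level of each gene in each tumor, in CPM on axes starting at 0, with the mean (long bar) and SD (whiskers) of 4 Ptgs+/+, 3 Ptgs-/- and 3 NK-depleted Ptgs-/- tumors. The 3 groups step down from Ptgs-/- to NK-depleted to Ptgs+/+ for Batf3 (50.2, 30.0 and 7.07 CPM) and Xcr1 (10.6, 6.24 and 2.28 CPM), while the Flt3 points of the groups overlap.

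The transcription factors Batf3 and Irf8 both rose in Ptgs-/- tumors, at counts of 47 to 2328 a library. Batf3, a basic leucine zipper factor that keeps the cDC1 program stable, lies on chromosome 1 (191097847 to 191108945, + strand, GRCm38). Its level was 8.96, 4.85, 7.37 and 7.11 CPM in Ptgs+/+ tumors, 33.7, 54.5 and 62.3 CPM in Ptgs-/- tumors, and 23.8, 35.6 and 30.7 CPM in NK-depleted tumors. No Ptgs+/+ tumor came near either Ptgs-/- group, which overlapped each other by 1 tumor. The log2 fold change was 2.76 (SE 0.24, adjusted p = 4.29e-05) for Ptgs-/- against Ptgs+/+. Irf8, an interferon regulatory factor needed for the cDC1 lineage, lies on chromosome 8 (120736358 to 120756694, + strand). Irf8 RNA stood at 66.2, 60.0, 66.0 and 62.9 CPM in Ptgs+/+ tumors, at 127, 194 and 212 CPM in Ptgs-/- tumors and at 101, 116 and 124 CPM in NK-depleted tumors. Here the 3 groups did not overlap at all. The rise over Ptgs+/+ tumors was 1.42 on the log2 scale (SE 0.15, adjusted p = 0.000135) in Ptgs-/- tumors.

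The receptors closest to cDC1-restricted were rare transcripts. Xcr1, on chromosome 9 (123852315 to 123862029, - strand), had 27, 24, 28 and 20 counts in Ptgs+/+ tumors, 73, 120 and 116 counts in Ptgs-/- tumors, and 50, 62 and 77 counts in NK-depleted tumors. These were 2.28 ± 0.213 (SD, n = 4), 10.6 ± 1.73 (n = 3) and 6.24 ± 1.23 CPM (n = 3). As for Irf8, the groups did not overlap on the CPM scale. Xcr1 rose by a log2 fold change of 2.16 (SE 0.20, adjusted p = 6.39e-05) for Ptgs-/- against Ptgs+/+. Clec9a, on chromosome 6 (129408862 to 129424763, + strand), had only 12, 4, 16 and 15 counts in Ptgs+/+ tumors, 16, 36 and 57 counts in Ptgs-/- tumors, and 28, 32 and 37 counts in NK-depleted tumors. The lowest Ptgs-/- tumor (1.96 CPM) was close to the highest Ptgs+/+ tumor (1.57 CPM). Its log2 fold change was 1.69 (SE 0.40, adjusted p = 0.0106), and without Ptgs-/- tumor 3 the adjusted p was 0.0506. Clec9a shares part of its span and strand with Clec1b, which had 0 to 6 counts in any library, and Irf8 with Gm20388, which had 0. How reads in shared stretches were assigned is not stated, so both counts carry that uncertainty. Flt3, Wdfy4, Itgae and Tlr3 each overlap a gene on the other strand (Gm26597, Lrrc18, Haspin and Gm45542), and whether the counting used strand is not stated.

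The promoter windows of these 2 receptors and of Irf8 are shown because Xcr1 and Clec9a are the surface receptors most restricted to cDC1 and Irf8 encodes a factor the lineage requires. Each is the 250 bases before the first RefSeq transcript start (GRCm38.p6, read 5′ to 3′ on the gene's strand), at chr9:123862030-123862279 for Xcr1, chr6:129408612-129408861 for Clec9a and chr8:120736108-120736357 for Irf8. Capitals mark matches to TTCNNNGAA, the palindrome read by STAT factors.
Xcr1: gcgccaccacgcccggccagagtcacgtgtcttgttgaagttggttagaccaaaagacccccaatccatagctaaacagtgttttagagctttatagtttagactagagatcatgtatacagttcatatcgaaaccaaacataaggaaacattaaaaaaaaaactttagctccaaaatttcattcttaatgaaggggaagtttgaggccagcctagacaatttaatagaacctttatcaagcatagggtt
Clec9a: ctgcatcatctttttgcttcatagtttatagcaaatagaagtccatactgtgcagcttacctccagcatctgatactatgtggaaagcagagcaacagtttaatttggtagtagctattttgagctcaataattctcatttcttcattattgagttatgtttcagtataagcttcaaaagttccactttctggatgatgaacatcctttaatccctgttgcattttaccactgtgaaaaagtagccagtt
Irf8: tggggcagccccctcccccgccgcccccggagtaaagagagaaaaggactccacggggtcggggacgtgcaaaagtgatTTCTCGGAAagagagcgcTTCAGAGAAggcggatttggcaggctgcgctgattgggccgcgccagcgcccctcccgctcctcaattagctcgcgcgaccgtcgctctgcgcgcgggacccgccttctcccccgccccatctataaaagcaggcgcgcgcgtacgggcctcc
Matches were searched on both strands, and those of different patterns could overlap. The 4 patterns were GAAANNGAA (interferon-stimulated elements, found in 7.13% of 32851 promoter windows), GGAANNGAA (ETS and IRF pairs, 6.99%), TGANTCA (AP-1, 6.75%) and TTCNNNGAA (7.02%). The Irf8 window held TTCNNNGAA at 2 places, TTCTCGGAA from base 171 to base 163 before the start and TTCAGAGAA from base 153 to base 145. The Batf3 window held it once, as TTCCACGAA from base 239 to base 231. That window lies inside the Batf3 gene span given above, so it may be transcribed. Xcr1 and Clec9a held none of the 4 patterns in windows of 38.8% and 35.6% GC, against 67.2% for Irf8. These are letter matches in 1 window per start, and say nothing of binding. RefSeq windows were found for 8 of the 9 genes, Itgae being the one without.

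Flt3 and Itgae, both of low count, were less steady. Flt3, the receptor for the growth factor that expands dendritic cells, lies on chromosome 5 (147330741 to 147400489, - strand). It was at 2.03, 0.825, 0.790 and 3.77 CPM in Ptgs+/+ tumors, 3.56, 3.10 and 3.28 CPM in Ptgs-/- tumors and 3.10, 2.77 and 4.37 CPM in NK-depleted tumors. Ptgs+/+ tumor 4, of the EB042 code, was above the Ptgs-/- tumors while the rest of its group lay below them. The log2 fold change was 0.79 (95% interval -0.18 to 1.77, adjusted p = 0.227) for Ptgs-/- against Ptgs+/+, and without Ptgs+/+ tumor 4 it was 1.34 (adjusted p = 0.0283). Itgae encodes the integrin chain CD103 and lies on chromosome 11 (73090583 to 73147446, + strand). Its counts were 10, 15, 10 and 22 in Ptgs+/+ tumors, 16, 32 and 48 in Ptgs-/- tumors, and 26, 25 and 29 in NK-depleted tumors. Ptgs-/- tumor 1 (1.96 CPM) lay below Ptgs+/+ tumor 4 (2.30 CPM), so these groups overlapped. The log2 fold change was 1.20 (SE 0.38, adjusted p = 0.0406) for Ptgs-/- against Ptgs+/+. That call held in 2 of 10 fits that each left out 1 library, those without Ptgs+/+ tumor 4 and without Ptgs-/- tumor 1. In the other 8 fits the adjusted p was 0.0524 to 0.154.

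Tlr3, Wdfy4 and Naaa act inside the cell. Tlr3, the endosomal sensor of double-stranded RNA, lies on chromosome 8 (45395665 to 45411080, - strand). Its fold change between Ptgs-/- and Ptgs+/+ tumors was the smallest of the 9, with levels of 14.6, 16.6, 18.6 and 19.3 CPM in Ptgs+/+ tumors, 20.6, 30.8 and 22.3 CPM in Ptgs-/- tumors and 18.1, 19.9 and 20.3 CPM in NK-depleted tumors. The Ptgs-/- tumors lay just above both other groups. The log2 fold change was 0.46 (SE 0.16, adjusted p = 0.0581) for Ptgs-/- against Ptgs+/+, and the adjusted p was 0.0486 without Ptgs+/+ tumor 3 and 0.0359 without Ptgs-/- tumor 1. Wdfy4, a BEACH-domain protein needed by cDC1 to cross-present cell-bound antigen, lies on chromosome 14 (32959547 to 33185508, - strand). Wdfy4 stood at 24.5, 26.9, 23.0 and 25.1 CPM in Ptgs+/+ tumors, 41.7, 66.6 and 70.4 CPM in Ptgs-/- tumors and 52.6, 52.4 and 54.8 CPM in NK-depleted tumors. Both Ptgs-/- groups were well clear of the Ptgs+/+ tumors, and the NK-depleted tumors fell inside the range of the undepleted ones. Its rise was 1.20 on the log2 scale (SE 0.15, adjusted p = 0.000429) for Ptgs-/- against Ptgs+/+. Naaa, a lysosomal amidase of N-acylethanolamines, lies on chromosome 5 (92257659 to 92278170, - strand). Naaa was at 23.1, 13.9, 18.6 and 30.1 CPM in Ptgs+/+ tumors, 80.5, 102 and 77.1 CPM in Ptgs-/- tumors and 55.0, 62.9 and 76.0 CPM in NK-depleted tumors. All 3 groups were apart, though the depleted and undepleted Ptgs-/- tumors nearly met. For Naaa the log2 fold change was 1.96 (SE 0.21, adjusted p = 0.000164) for Ptgs-/- against Ptgs+/+.

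Most of the 9 genes were lower on average in Ptgs-/- tumors of NK-depleted hosts, but by less than the test could call. None of the 9 genes differed between undepleted and NK-depleted Ptgs-/- tumors at an adjusted p of 0.05 (edgeR), where 1.44% of all genes differed and 0.515% were higher with NK cells. In 8 of the 9 genes the fitted level was higher with NK cells, Flt3 being the exception, and the median log2 fold change was 0.32 (-0.013 over all genes). At an unadjusted p under 0.05 there were 3 genes, Xcr1, Batf3 and Irf8, against 11.2% of all genes, and DESeq2 called 1, Irf8 (adjusted p = 0.0214). Xcr1 differed by 0.75 on the log2 scale (95% interval 0.31 to 1.18, adjusted p = 0.131), Batf3 by 0.71 (0.19 to 1.24, adjusted p = 0.26) and Irf8 by 0.62 (0.27 to 0.96, adjusted p = 0.11). For Clec9a the difference was 0.16 with an interval of -0.69 to 1.02, wide on both sides of 0. Wdfy4 had the lowest upper bound of the 9, at 0.13 with an interval of -0.22 to 0.49. In 4 genes, Xcr1, Irf8, Tlr3 and Naaa, every undepleted tumor lay above every depleted one, as in 10.4% of all genes. Ptgs-/- tumor 1 held the lowest level of its group in 7 of the 9 genes. Without it, Irf8 (log2 fold change 0.80, adjusted p = 0.00523) and Batf3 (0.92, adjusted p = 0.0455) passed.

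**Figure D2:**
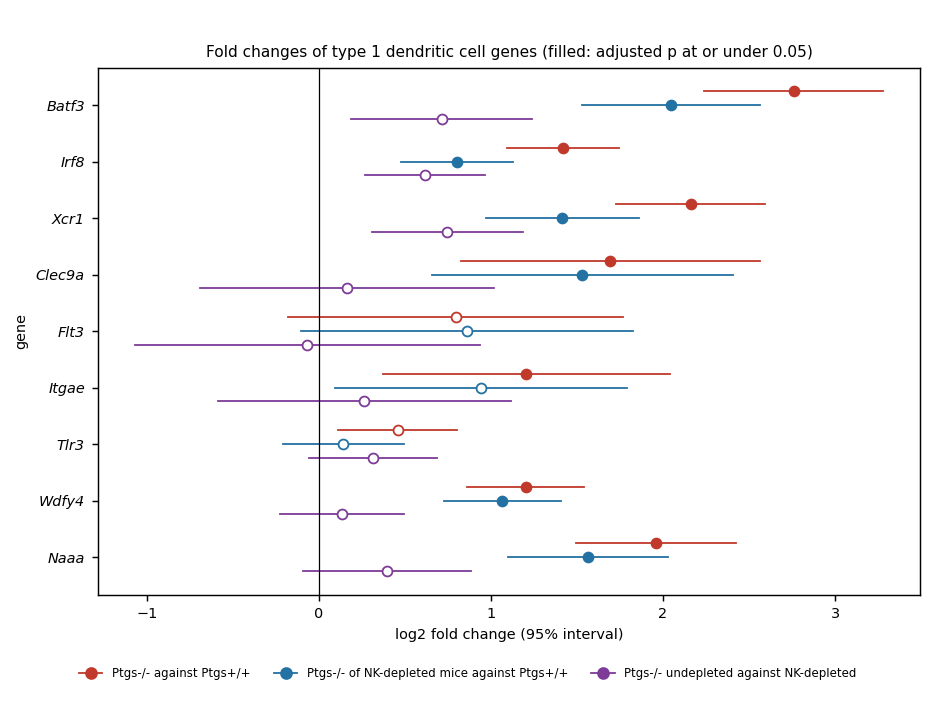
Log2 fold change of each gene (points) with its 95% interval (lines) in the 3 comparisons, filled where the adjusted p is 0.05 or less. Filled points number 7 for Ptgs-/- against Ptgs+/+ and 6 for NK-depleted Ptgs-/- against Ptgs+/+, and 0 for undepleted against NK-depleted Ptgs-/- tumors, where Xcr1, Batf3 and Irf8 have intervals above 0.

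Against Ptgs+/+ tumors, the NK-depleted Ptgs-/- tumors were also higher in most of the 9 genes. Of the 9 genes, 6 were higher, Batf3, Naaa, Clec9a, Xcr1, Wdfy4 and Irf8, where 12.5% of all genes differed and 6.63% were higher, and 3 (Batf3, Naaa and Clec9a) also passed a log2 fold change of 1.5 (2.01% of all genes). The median log2 fold change was 1.07 (-0.006 over all genes). Batf3 was 4.13-fold higher (log2 fold change 2.05, SE 0.24, adjusted p = 0.000249), Naaa 2.96-fold (1.56, SE 0.21, adjusted p = 0.000719), Clec9a 2.89-fold (1.53, SE 0.40, adjusted p = 0.0287) and Xcr1 2.66-fold (1.41, SE 0.20, adjusted p = 0.00105). Wdfy4 was 2.09-fold and Irf8 1.75-fold higher. In all, 7 genes did not overlap between the groups, against 15.1% of all genes. Flt3 (log2 fold change 0.86, adjusted p = 0.239), Itgae (0.94, adjusted p = 0.14) and Tlr3 (0.14, adjusted p = 0.631) did not pass, and without Ptgs+/+ tumor 4 Flt3 did (1.41, adjusted p = 0.0332). Clec9a did not pass without Ptgs+/+ tumor 1 (adjusted p = 0.0774), without Ptgs+/+ tumor 2 (0.06), or without NK-depleted tumor 1 (0.0687), 2 (0.0678) or 3 (0.103). NK-depleted tumor 3 was the highest of its group in 8 of the 9 genes. The muscle RNA of this group moves with these differences, and its part in them was not tested. This comparison shares its tumors with both others, so the 3 sets of values are not independent.

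The XCR1 ligand and its receptor were both highest in undepleted Ptgs-/- tumors, but parted in the NK-depleted ones. Xcl1, the ligand of XCR1, had 16, 5, 7 and 6 counts in Ptgs+/+ tumors, 99, 103 and 152 counts in Ptgs-/- tumors and 5, 7 and 4 counts in NK-depleted tumors. Only the undepleted Ptgs-/- tumors were high. Xcl1 was 15.0-fold higher in Ptgs-/- than in Ptgs+/+ tumors (log2 fold change 3.91, SE 0.28, adjusted p = 1.47e-05) and 22.2-fold higher than in NK-depleted tumors (4.47, SE 0.33, adjusted p = 0.000174). Between NK-depleted Ptgs-/- and Ptgs+/+ tumors it did not pass the test (-0.56, 95% interval -1.41 to 0.28, adjusted p = 0.389), whereas Xcr1 did. Ccl5, a chemokine that draws dendritic cells among others, was likewise highest in undepleted Ptgs-/- tumors, with 84.8 ± 35.9 CPM in Ptgs-/- (SD, n = 3), 18.5 ± 3.58 CPM in NK-depleted (n = 3) and 11.2 ± 2.27 CPM in Ptgs+/+ tumors (n = 4). Its log2 fold change was 2.16 (adjusted p = 0.00221) for undepleted against NK-depleted tumors. Ccl4, another chemokine of activated lymphocytes, was 2.55-fold higher with than without NK cells (adjusted p = 0.0204). Csf2, which encodes the growth factor GM-CSF, had at most 1 count in a library and was not tested. Flt3l, which encodes the ligand of FLT3, was not analysed here.

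**Figure D3:**
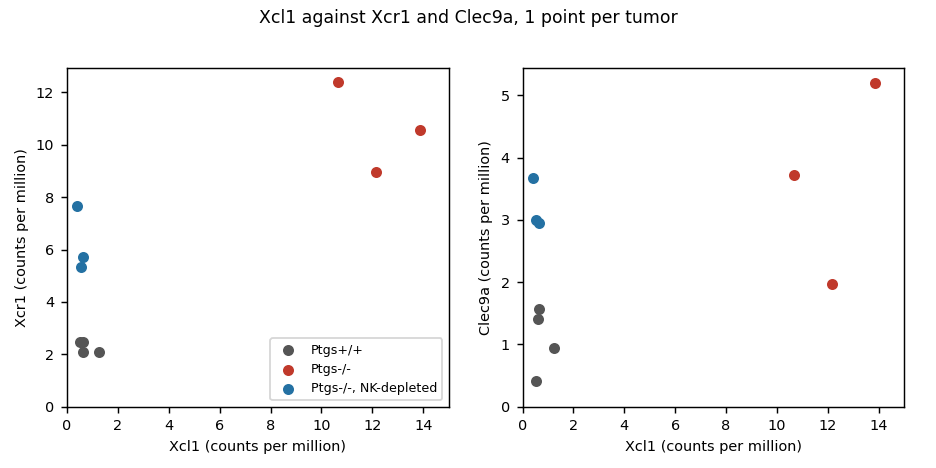
Xcl1 (horizontal axis) against Xcr1 (left) and Clec9a (right) in CPM, 1 point per tumor for 4 Ptgs+/+, 3 Ptgs-/- and 3 NK-depleted Ptgs-/- tumors. The NK-depleted tumors share the low Xcl1 of Ptgs+/+ tumors (0.397 to 0.646 against 0.515 to 1.25 CPM) but have more Xcr1 (5.35 to 7.65 against 2.09 to 2.47 CPM).

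The partners of the 9 proteins inside the cell and on its surface gave a mixed picture. Of the 9 ligands and partners tested, 7 rose for Ptgs-/- against Ptgs+/+, 4 for undepleted against NK-depleted, and 2 for NK-depleted against Ptgs+/+. Of all genes tested, 12.1%, 0.515% and 6.63% rose in these comparisons. Itgb7, whose product pairs with CD103, was 2.63-fold higher in Ptgs-/- than in Ptgs+/+ tumors (adjusted p = 0.000478) and 3.27-fold higher in NK-depleted than in Ptgs+/+ tumors (adjusted p = 0.000156). Cdh1 encodes E-cadherin, the ligand of CD103. It was 30.4 ± 23.8 CPM in Ptgs-/- (n = 3), 57.9 ± 9.34 in NK-depleted (n = 3) and 77.4 ± 35.5 CPM in Ptgs+/+ tumors (n = 4), a spread within which no comparison passed (lowest adjusted p = 0.0517). Batf, which can stand in for BATF3, was 2.60-fold higher in Ptgs-/- than in Ptgs+/+ tumors (adjusted p = 0.00581) and 2.02-fold higher in NK-depleted than in Ptgs+/+ tumors (adjusted p = 0.0434). Irf1, an interferon-induced factor, was higher in Ptgs-/- tumors than in both other groups (log2 fold change 0.80, adjusted p = 0.00026 against Ptgs+/+, and 0.50, adjusted p = 0.0341 against NK-depleted). Spi1 encodes PU.1, a DNA-binding partner of IRF8. It rose by 0.57 (adjusted p = 0.00666) in Ptgs-/- against Ptgs+/+ tumors. Ticam1, the adaptor of TLR3, did not pass in any comparison (lowest adjusted p = 0.152).

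Other genes that cDC1 use were less uniform than the 9. Of 16 such genes, 14 passed the filter on low counts. For Ptgs-/- against Ptgs+/+, 7 rose, 1 fell and 6 did not pass, and the median log2 fold change was 0.47. Of all genes tested, 12.1% rose there. Those that rose were Tlr11, Tlr12, Ifi205, Rab7b, Cadm1, Ppt1 and Id2. Tlr12, a sensor of microbial profilin, had 27, 38, 44 and 20 counts in Ptgs+/+, 58, 87 and 154 in Ptgs-/- and 34, 81 and 39 in NK-depleted tumors. It passed for Ptgs-/- against Ptgs+/+ tumors (log2 fold change 1.69, adjusted p = 0.00516) and not for NK-depleted against Ptgs+/+ tumors (0.71, adjusted p = 0.228). Tlr11, its partner, had 0 to 3 counts in Ptgs+/+, 3 to 12 in Ptgs-/- and 6 to 11 in NK-depleted tumors (adjusted p = 0.0146 and 0.0275 for the 2 Ptgs-/- groups against Ptgs+/+). Nfil3, which encodes a factor of early cDC1 development also used by NK cells, fell by 0.73 on the log2 scale (adjusted p = 0.00315), from 31.2 ± 4.19 CPM in Ptgs+/+ (n = 4) to 19.6 ± 1.43 in Ptgs-/- (n = 3) and 17.2 ± 1.44 CPM in NK-depleted tumors (n = 3). None of the 14 passed between undepleted and NK-depleted tumors in edgeR's test, with 2 at an unadjusted p under 0.05 (Tlr12 and Id2). Against Ptgs+/+, 4 rose and 1 fell in NK-depleted tumors, where 6.63% of all genes tested rose. Ly75, which encodes DEC-205, was 11.1 to 17.4 CPM in Ptgs+/+, 10.2 to 15.0 in Ptgs-/- and 7.95 to 15.1 CPM in NK-depleted tumors and did not pass in any comparison.

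Genes of other dendritic cells and of macrophages rose as well, while 5 of 7 neutrophil genes fell and none rose. Of all genes tested, 12.1% rose for Ptgs-/- against Ptgs+/+. Of 8 genes of type 2 conventional dendritic cells tested, 7 rose in Ptgs-/- against Ptgs+/+ tumors (median log2 fold change 1.41), led by Irf4 (2.43, adjusted p = 0.000387) and Mgl2 (2.24, adjusted p = 0.00147). Of 8 genes shared by conventional dendritic cells, 6 rose (median 1.14), Cd83, a maturation marker, by 1.97 (adjusted p = 0.000218) and Dpp4 by 1.58 (adjusted p = 0.000507). Zbtb46, the factor that separates conventional dendritic cells from other myeloid cells, did not pass (0.30, adjusted p = 0.407). Of 8 plasmacytoid dendritic cell genes 4 rose, among them Siglech (1.28, adjusted p = 0.00556) and Spib (1.30, adjusted p = 0.00424). Cox6a2, also among the 4 (1.42, adjusted p = 0.0202), encodes a cytochrome c oxidase subunit that striated muscle also makes, and rose further in NK-depleted tumors, to 45.5 CPM against 7.86 in Ptgs-/- and 2.78 in Ptgs+/+ tumors. The muscle RNA moves with it, and its part was not tested. Cd207, listed here as a Langerhans cell gene, had 6 to 13 counts in Ptgs+/+ tumors and 0 or 1 in every Ptgs-/- tumor, and none of the 3 Langerhans genes tested rose. Of these, Mfge8, which many other cells also make, fell by 0.79 on the log2 scale (adjusted p = 0.00371). Of 6 monocyte genes, 4 rose and 1, Vcan, fell (median 1.22). Macrophage genes rose in 9 of 12 (median 0.79), led by Adgre1 (1.31, adjusted p = 3.95e-05), and T cell genes in 9 of 11 (median 2.44). Their part in the levels of Irf8, Wdfy4, Itgae, Naaa and Tlr3, which such cells can share, was not tested. Nor was that of other leukocytes in the levels of Batf3 and Flt3. Of 7 B cell genes only Cd79b had counts enough to be tested, and it rose by 1.14 in Ptgs-/- (adjusted p = 0.0407) and by 1.20 in NK-depleted Ptgs-/- tumors (adjusted p = 0.0496) against Ptgs+/+. Cd79a had at most 2 counts in any library, while NK-depleted tumor 1 held 45 counts of Ms4a1 and 36 of Pax5, against at most 8 of either in every other library. B cells also use Irf8 and Wdfy4, and their part in the levels of both was not tested.

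**Figure D4:**
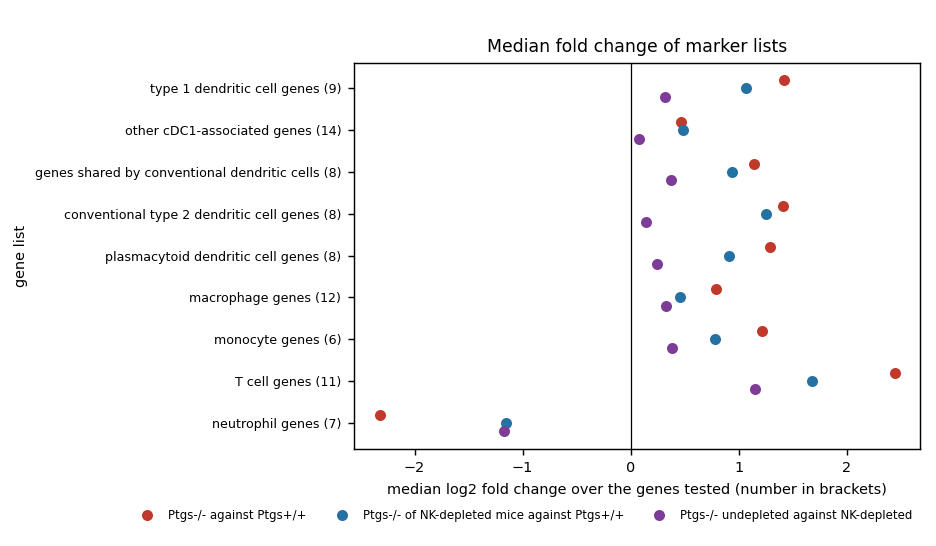
Median log2 fold change over the tested genes of each list (number of genes in brackets) in the 3 comparisons. The 9 type 1 dendritic cell genes (median 1.42 for Ptgs-/- against Ptgs+/+) sit beside the type 2 list (1.41), above the macrophage list (0.79) and below the T cell list (2.44), and the neutrophil list is negative (-2.32). The plasmacytoid (1.29), monocyte (1.22) and shared conventional dendritic cell (1.14) lists lie between the type 2 and macrophage lists. The other cDC1-associated genes lie below the macrophage list (0.47).

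Each gene was also set against Ptprc, which encodes the pan-leukocyte protein CD45 and rose itself in Ptgs-/- tumors. Ptprc was 72.8 ± 8.03 CPM in Ptgs+/+ (n = 4), 172 ± 42.7 in Ptgs-/- (n = 3) and 95.5 ± 6.08 CPM in NK-depleted tumors (n = 3). Its log2 fold change was 1.18 for Ptgs-/- against Ptgs+/+ (adjusted p = 0.000553), 0.82 for undepleted against NK-depleted (adjusted p = 0.038) and 0.36 for NK-depleted against Ptgs+/+ (adjusted p = 0.174). Dividing by Ptprc therefore takes 1.21, 0.82 and 0.40 off the log2 difference of mean levels of every gene in these comparisons. Per 100 Ptprc counts, 2 of the 9 genes were still above every Ptgs+/+ tumor in all Ptgs-/- tumors, as were 1.37% of all genes. These were Batf3, with 11.5, 6.71, 9.29 and 11.5 against 27.5, 28.0 and 31.4, and Xcr1, with 2.69, 3.43, 3.10 and 3.39 against 7.31, 6.37 and 5.34. Another 6 overlapped, among them Clec9a, Irf8 and Wdfy4, the last with a mean of 34.6 per 100 Ptprc counts in both groups. Tlr3 was below, at 14.6 ± 2.96 (n = 3) against 24.1 ± 5.21 (n = 4), as were 67.1% of all genes.

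Between NK-depleted and undepleted Ptgs-/- tumors, the ratio is shifted by the 0.82 that Ptprc itself differed. Batf3 was 31.3 ± 4.32 (n = 3) against 29.0 ± 2.13 (n = 3) per 100 Ptprc counts and Xcr1 6.53 ± 1.19 against 6.34 ± 0.985, both within the spread. There, 5 genes (Clec9a, Irf8, Wdfy4, Itgae and Tlr3) were higher in every NK-depleted tumor than in every undepleted one, as were 66.4% of all genes, so the count does not set the 9 apart. Clec9a was at 3.37, 2.93 and 3.79 in NK-depleted tumors against 1.60, 1.91 and 2.62, and Wdfy4 at 59.3, 52.0 and 56.6 against 34.0, 34.2 and 35.5. Against Ptgs+/+ tumors, 6 genes were higher in every NK-depleted tumor, against 4.15% of all genes. These ratios were not tested. Ptprc RNA also comes from NK cells, whose genes were lower in depleted tumors, and their part in the ratio was not tested. Gene lists of NK cells summed to 95.6 to 202 CPM in undepleted and 9.20 to 10.1 CPM in NK-depleted tumors.

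**Figure D5:**
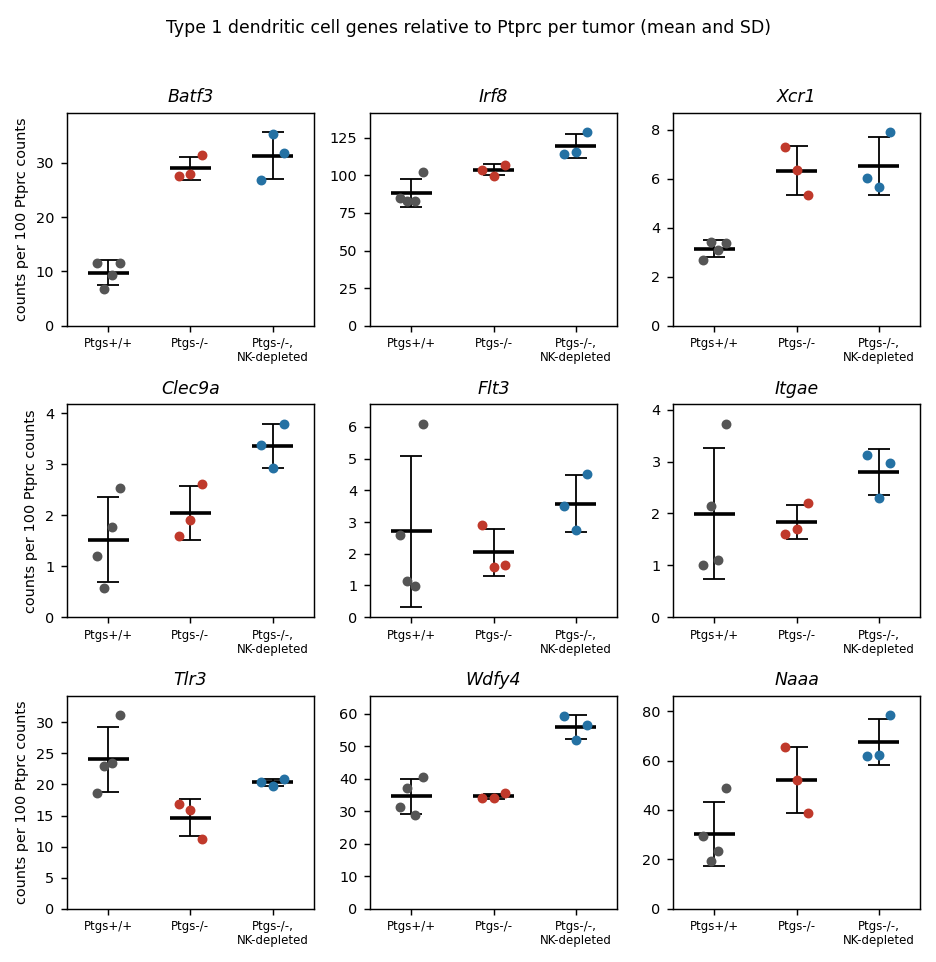
Counts of each gene per 100 Ptprc counts of the same tumor, on axes starting at 0, with the mean (long bar) and SD (whiskers) of 4 Ptgs+/+, 3 Ptgs-/- and 3 NK-depleted Ptgs-/- tumors. Batf3 and Xcr1 stay apart from Ptgs+/+ in both Ptgs-/- groups. Every gene but Tlr3 has its highest mean in the NK-depleted tumors, Wdfy4 (56.0) and Clec9a (3.37) among them. Ptprc itself was lower there than in undepleted Ptgs-/- tumors.

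Within groups the 9 genes varied together in part. Ptgs-/- tumor 1 was the lowest of its group in 7 of them and also had the lowest Ptprc (123 CPM against 195 and 198). Xcr1, Tlr3 and Naaa peaked in Ptgs-/- tumor 2, and Batf3, Irf8, Clec9a, Wdfy4 and Itgae in Ptgs-/- tumor 3. Ptgs+/+ tumor 4 was the highest of its group in 5 genes while its Ptprc was the lowest (61.7 CPM). Within the EB046 tumors alone, 6 of the 9 passed for Ptgs-/- against Ptgs+/+, Itgae being lost (adjusted p = 0.0576). That fit left out Ptgs+/+ tumor 4 and Ptgs-/- tumor 3. Over all genes, 2222 passed in it, against 3360 of 14550 in the main fit.

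The genes whose pattern over the 10 tumors was closest to Xcr1 were Pou2f2, which encodes the factor OCT2, Gm37010 and Cd180, which encodes a toll-like receptor homolog of B cells and myeloid cells. Likeness was the root mean square difference of centred log2 CPM, 0.16, 0.22 and 0.24 against a median of 0.94 over all genes. For Clec9a they were Cyp27a1, a sterol hydroxylase gene (0.26), Fads6 (0.29) and the septin gene Sept3 (0.30), against a median of 0.93. Sept3 was 3.84 ± 1.28 CPM in Ptgs+/+ (n = 4), 11.9 ± 3.01 in Ptgs-/- (n = 3) and 11.7 ± 2.73 CPM in NK-depleted tumors (n = 3). Among 14549 other genes, Irf8 ranked 70 and Naaa 84 in likeness to Xcr1, with Clec9a at 666 and Flt3 at 2566. Naaa ranked 62, Irf8 162 and Wdfy4 173 in likeness to Clec9a, with Xcr1 at 446. The patterns of Xcr1 and Clec9a thus lay further from each other than each did from Irf8 and Naaa, and at 4 to 57 counts a tumor the counting error of Clec9a is part of that distance.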

How the data were processed

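QuantSeq 3′ FWD libraries were made from bulk tumor RNA, so counts mark transcript 3′ ends and do not scale with gene length. The authors deposited 1 table of raw counts per Ensembl gene. Per their methods, reads were trimmed with BBDUK, fqtrim and cutadapt, aligned with STAR to GRCm38 and counted with featureCounts. Strand, multimapping and molecular identifiers are not given in the sources used here. Symbols were joined from a GENCODE table (45143 of 45706 identifiers).

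One model of all 10 libraries was fitted in edgeR 4.0.16 (R 4.3.3; TMM, filterByExpr, quasi-likelihood test, Benjamini-Hochberg adjustment over 14550 genes), with a threshold of 0.05. Levels are CPM, counts per 1000000 of the library total. The fit was checked on simulated counts. DESeq2 1.42.0, other scalings, filters, designs and leaving out each library were alternatives. Replicates were distinct (chi-square per degree of freedom 7.41 to 30.1). The 9 genes and all lists were chosen with earlier results of these data known, so no test over a list was made. Named were the 9 genes, checks of the labels, ligands and partners, up to 3 genes of lowest p per other list and comparison, defining markers near 0, and the 3 genes most alike in pattern to Xcr1 and Clec9a. Zbtb46, Ly75, Tlr11, Tlr12, Ifi205, Id2, Siglech, Ms4a1, Pax5, Mitf, Sox10, Pmel and Dct were named after their values were seen.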

Additional observations from a re-analysis of the deposited data

Results flagged for a closer look

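By Dixon's test 3 values stood far from the rest of their group of 4 Ptgs+/+ tumors, among 32 sets of 4 examined, where chance flags about 1 in 20. Xcl1 was 1.246 CPM in Ptgs+/+ tumor 1, against 0.515 to 0.628 CPM in the others. Ticam1 was 20.72 CPM in Ptgs+/+ tumor 3, against 12.5 to 13.1 CPM. Irf8 stood at 101.9 per 100 Ptprc counts in Ptgs+/+ tumor 4, against 83.1 to 84.8. That tumor had the lowest Ptprc of its group, 61.7 CPM, and an Irf8 level inside the group's range, 62.9 CPM.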

How the results depend on the processing

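No value of the 9 genes that had passed its test changed sign under any alternative. Some that had not passed did. Per Ptprc count, which alone takes 0.82 off every gene, all 9 were lower on average in undepleted than in NK-depleted Ptgs-/- tumors. Clec9a differed by -0.74 and Wdfy4 by -0.69 on the log2 scale. For Ptgs-/- against Ptgs+/+ tumors, Tlr3 (-0.71) and Flt3 (-0.06) changed sign per Ptprc count. For Ptgs-/- against Ptgs+/+ tumors, 5 to 8 of the 9 genes passed when 1 library was left out, and 2062 to 3882 of all genes. The EB046 tumors alone gave 2222 genes, and the added limit of 1.5 on the log2 fold change gave 604, with 4 of the 9. For undepleted against NK-depleted Ptgs-/- tumors the count of all genes moved most, from 209 to 377 with DESeq2, 408 without a filter, 403 with a likelihood ratio test, 42 with at least 10 counts in every library (fewer genes tested), 93 in the EB046 tumors alone, and 106 to 411 with 1 library left out. There 1 of the 9, Irf8, passed with DESeq2, without a filter, with a likelihood ratio test, and with Ptgs-/- tumor 1 and NK-depleted tumor 1 both left out, a setting chosen after seeing the data. With 1 library left out, 0 to 2 of the 9 passed, 2 without Ptgs-/- tumor 1. For NK-depleted Ptgs-/- against Ptgs+/+ tumors, the limit of 1.5 gave 395 genes and 3 of the 9. The median log2 fold change of the 9 was 1.38 in the EB046 tumors alone and 1.03 to 1.37 with 1 library left out, 1.37 without Ptgs+/+ tumor 4, and 909 to 2116 of all genes passed, 909 without NK-depleted tumor 3. For moved counts other than those of fewer genes or samples, the cause was not tested.

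Tlr3 also passed for Ptgs-/- against Ptgs+/+ tumors with library size alone (adjusted p = 0.0372) and Itgae for NK-depleted against Ptgs+/+ tumors with the label code as a term (0.0413), and Itgae did not pass for Ptgs-/- against Ptgs+/+ with only the groups compared (0.0798). Whether the label numbers pair the tumors is not stated, and the main fit did not pair them. Same-numbered tumors of different groups had deviations correlated at -0.244 to 0.355 over 11 pairs. Of 10 libraries, 6 were closest to one of their own number. No chance level was worked out for that count, so it does not decide the question. With the number as a replicate block, 8, 0 and 6 of the 9 genes and 3237, 195 and 1769 of all genes passed in the 3 comparisons, Tlr3 being the addition (adjusted p = 0.0345). Of the 9 genes, Clec9a, Flt3 and Itgae had the fewest counts, 233 to 277 over all libraries.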
